A study of Mus musculus with 24 samples.

Results

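The probes ST_Mm_320 and ST_Mm_289 of a spotted liver array were selected on their log2 ratios in wild type mice, where they had the lowest means after pregnenolone-16α-carbonitrile (PCN) among probes that passed the test. They are 2 of 284 mouse probes, each printed as 3 spots per array, in print blocks 1, 3 and 5. The probe annotation pairs ST_Mm_320 with Ppargc1a (Entrez gene 19017, chromosome 5, 51454249 to 52115853) and ST_Mm_289 with C4bp (Entrez gene 12269, chromosome 1, 130635921 to 130661657), both on GRCm38.p6. A further probe, ST_Mm_131, is assigned to the same Ppargc1a transcript and is described beside them. The part of each transcript that a probe matches was not determined here, so whether it lies in a coding exon or an untranslated region was not analysed. The wild type ratios chose the probes and are given as a description with no test. The tests use the 3 receptor-deficient genotypes.

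Ppargc1a encodes PGC-1α, a transcriptional coactivator that docks on nuclear receptors and other factors and raises transcription of genes of mitochondrial respiration, fatty acid oxidation and, in the fasting liver, gluconeogenesis. In hepatocytes its own transcription is driven by glucagon and cyclic AMP through the factor CREB. C4bp encodes the C4b-binding protein, a plasma protein made in the liver that restrains the complement cascade by binding C4b and serving as a cofactor for its cleavage. PCN is a steroid that activates the rodent pregnane X receptor (PXR), which together with the constitutive androstane receptor (CAR) controls genes of drug clearance.

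Livers were those of C57BL/6J males, 9 to 12 weeks old, that were CAR-deficient, PXR-deficient, deficient in both receptors (CAR/PXR-deficient) or wild type, with 6 arrays per genotype and 24 in all. Mice of all 4 genotypes received PCN at 40 mg/kg into the peritoneum in 5% DMSO and corn oil, and livers were taken after 12 h. On each array this RNA carried Cy5 and was set against a pool of livers given the vehicle alone, of the same genotype, in Cy3. A log2 ratio below 0 thus means less signal after PCN, and the dye orientation was the same on every array, so a dye effect particular to a probe is part of each ratio and drops out of a difference between genotypes. The labels do not say how the receptors were inactivated. They also mention pooling RNA of 6 replicates without naming the channel, and call the Cy3 pool untreated in one field and vehicle-injected in another. P-values therefore measure the spread between arrays, which may be technical, and the spread between vehicle-treated mice enters no test. In whole liver, fewer cells of a type and less RNA per cell cannot be told apart.

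On each array 158 to 243 mouse probes exceeded background, and the tests cover 236. The array medians of foreground intensity were 109 to 891 in Cy5 and 175 to 1042 in Cy3. Some arrays stood apart. PXR-deficient array 2 had a median log2 ratio of 1.15 relative to the control spots. CAR/PXR-deficient arrays 5 and 6 had a Cy5 background near 0, with up to 99.5% of spots at 0. Arrays of CAR/PXR-deficient livers correlated over probes with those of CAR-deficient livers at a median r of -0.36, with PXR-deficient arrays at -0.51 and with wild type arrays at -0.13. Because the labels state the dye of each channel, the direction was kept as labelled. If the CAR/PXR-deficient ratios ran the other way, the means of Ppargc1a would lie above 0 and those of C4bp, Fgb and Crp below 0 in that genotype. Cyp3a11, the main PCN-induced cytochrome P450 of mouse liver, had log2 ratios of 2.23 ± 0.55 in CAR-deficient livers, 0.30 ± 0.28 in PXR-deficient livers, -0.37 ± 0.33 in CAR/PXR-deficient livers and 2.94 ± 0.32 in wild type livers (SD, n = 6 each). The Cy5 level of Nr1i3, the CAR gene, was 7.70 ± 0.06 in CAR-deficient livers, 8.07 ± 0.15 in PXR-deficient livers, 7.72 ± 0.06 in CAR/PXR-deficient livers and 8.01 ± 0.18 in wild type (log2 intensity; SD, n = 6 each). That of Nr1i2, the PXR gene, was 7.78 ± 0.27, 7.93 ± 0.25, 8.31 ± 0.21 and 7.71 ± 0.17 in the same order (SD, n = 6 each). Nr1i3 was thus lowest in the 2 genotypes that lack CAR, whereas Nr1i2 was not lowest in those that lack PXR. Where these probes lie relative to the deleted stretches is not known here, and a probe outside the deletion checks nothing. Of the cell type markers listed, Apoa1, made by hepatocytes, was on the array, at a Cy5 level of 13.2 in CAR-deficient livers, 13.0 in PXR-deficient livers, 13.0 in CAR/PXR-deficient livers and 13.2 in wild type livers (log2 intensity). Its log2 ratio was 0.18 ± 0.12 in CAR-deficient livers, -0.09 ± 0.33 in PXR-deficient livers, -0.03 ± 0.16 in CAR/PXR-deficient livers and 0.47 ± 0.21 in wild type, where it was above 0 on 6 of 6 arrays (SD, n = 6 each), and its part in the results was not tested. Markers of macrophages, cholangiocytes, endothelium and stellate cells were not among the annotated probes.

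The RefSeq promoter windows of both genes on GRCm38.p6, 250 bases before to 50 after an annotated start, are shown because both probes were selected together on their low wild type ratios. The Ppargc1a window, chr5:51567676-51567975 on the minus strand, sits at an internal start, and the annotated gene reaches further upstream. The C4bp window is chr1:130661569-130661868, also on the minus strand. Its start is internal too, since the annotated C4bp gene reaches slightly further upstream, to 130661657. Both strands were searched for the letters TGACG (the core of a cyclic AMP response element), GTTAAT (part of the binding motif of the liver factor HNF1) and AGTTCA (a repeat unit of PXR, CAR and related nuclear receptor motifs). Capitals mark every match, and the motifs do not overlap in either window.
Ppargc1a: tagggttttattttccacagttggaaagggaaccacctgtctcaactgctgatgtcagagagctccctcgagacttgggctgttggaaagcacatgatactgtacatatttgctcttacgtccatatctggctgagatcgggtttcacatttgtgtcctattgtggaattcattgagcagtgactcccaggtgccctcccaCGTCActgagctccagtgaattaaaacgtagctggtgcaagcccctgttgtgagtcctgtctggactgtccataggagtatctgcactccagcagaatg
C4bp: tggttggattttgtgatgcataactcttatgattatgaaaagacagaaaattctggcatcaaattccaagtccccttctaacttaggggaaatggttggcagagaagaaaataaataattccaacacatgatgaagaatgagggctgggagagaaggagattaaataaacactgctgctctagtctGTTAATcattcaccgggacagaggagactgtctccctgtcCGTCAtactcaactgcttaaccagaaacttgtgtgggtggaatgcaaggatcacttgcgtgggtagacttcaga
TGACG was found on the reverse strand once in each window, 49 bases before the start of Ppargc1a and 24 before that of C4bp, and 20.8% of 32851 RefSeq promoter windows hold it. GTTAAT stood 64 bases before the C4bp start and was not in the Ppargc1a window; 7.1% of all windows hold it. AGTTCA was in neither window, against 14% of all windows. These matches describe letters only.

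Ppargc1a read lower after PCN in CAR-deficient livers by both probes, with means near those of wild type. In PXR-deficient and CAR/PXR-deficient livers the means were nearer to 0. On the CAR-deficient arrays the log2 ratio of ST_Mm_320 was -0.93, -1.06, -0.22, -0.63, -0.66 and -0.55 for replicates 1 to 6. On the PXR-deficient arrays it was -0.10, 0.40, -0.17, -0.31, -0.68 and -0.63. On the CAR/PXR-deficient arrays it was 0.01, -0.25, -0.45, -0.39, -0.69 and -0.52, and on the wild type arrays -0.65, -1.05, -0.59, -0.64, -0.92 and -0.44. All CAR-deficient and all wild type arrays lay below 0, whereas 1 array of each of the other genotypes lay above it, and the ranges of all 4 genotypes overlapped.

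In CAR-deficient livers Ppargc1a fell by 0.67 ± 0.30 on the log2 scale by ST_Mm_320 (SD, n = 6; lower on 6 of 6 arrays; limma, adjusted p = 8.49e-05), so its signal relative to the pool fell by 37.4%. Of the 236 tested probes 16.9% were called in CAR-deficient livers, 10.2% as lower and 6.78% as higher. In PXR-deficient livers the mean was -0.25 ± 0.40 (SD, n = 6; lower on 5 of 6 arrays) and did not pass (limma, adjusted p = 0.0838), where 39% of probes were called, 19.5% in each direction. Without PXR-deficient array 2, the mean was -0.38 and passed (limma, adjusted p = 0.0101). With control centring the PXR-deficient mean was -0.05 with that array (limma, adjusted p = 0.955) and -0.34 without it (limma, adjusted p = 0.105). Median centring without that array gave -0.26 and did not pass either (limma, adjusted p = 0.155). In CAR/PXR-deficient livers the probe fell by 0.38 ± 0.24 (SD, n = 6; lower on 5 of 6 arrays; limma, adjusted p = 0.0132), where 22.5% of probes were called, 11.9% as lower and 10.6% as higher. That call was lost without CAR/PXR-deficient arrays 5 and 6 (-0.27; limma, adjusted p = 0.233), without array 5 alone (-0.32; limma, adjusted p = 0.0687) and without array 6 alone (-0.35; limma, adjusted p = 0.0504), as well as under median centring (-0.29; limma, adjusted p = 0.0768) and control centring (-0.36; limma, adjusted p = 0.212). The wild type mean that chose the probe was -0.71 ± 0.22 (SD, n = 6), with 37.7% of probes called, 16.5% as lower and 21.2% as higher. Of all tested probes, 8.9% lay below 0 on all 6 arrays in CAR-deficient livers, 19.5% in PXR-deficient livers, 15.7% in CAR/PXR-deficient livers and 14.4% in wild type.

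**Figure D1:**
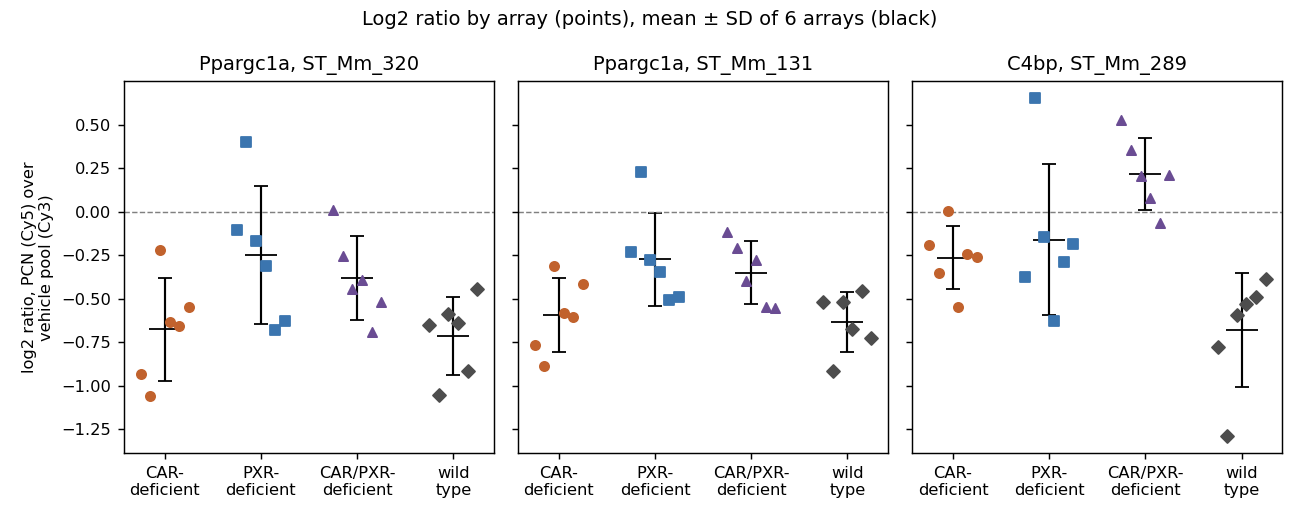
Log2 ratio of PCN (Cy5) over the vehicle pool (Cy3), vertical axis, for Ppargc1a by ST_Mm_320 and ST_Mm_131 and for C4bp by ST_Mm_289, by genotype; each point is an array, in order of replicate number, and black bars give the mean ± SD of 6 arrays. The highest point of each PXR-deficient column is array 2, at 0.40, 0.23 and 0.65.

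The second Ppargc1a probe gave the same order of genotypes. ST_Mm_131 ranged from -0.89 to -0.31 with a median of -0.59 on CAR-deficient arrays, from -0.51 to 0.23 with a median of -0.31 on PXR-deficient arrays and from -0.55 to -0.12 with a median of -0.34 on CAR/PXR-deficient arrays, against -0.91 to -0.45 with a median of -0.60 on wild type arrays. All but 1 of these 24 ratios were below 0. It fell by 0.60 ± 0.21 in CAR-deficient livers (SD, n = 6; limma, adjusted p = 5.70e-06), by 0.27 ± 0.27 in PXR-deficient livers (SD, n = 6; limma, adjusted p = 0.0113) and by 0.35 ± 0.18 in CAR/PXR-deficient livers (SD, n = 6; limma, adjusted p = 0.00211), against a mean of -0.63 ± 0.17 in wild type (SD, n = 6). Without array 2 the PXR-deficient mean was -0.37 (limma, adjusted p = 7.85e-04), and with centring on control spots it was -0.09 with that array and did not pass (limma, adjusted p = 0.825), against -0.33 without it (limma, adjusted p = 0.0320). Without CAR/PXR-deficient arrays 5 and 6 that genotype's mean was -0.25 and no longer passed (limma, adjusted p = 0.106), nor did it with control centring (-0.32; limma, adjusted p = 0.162).

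C4bp had a mean ratio below 0 in CAR-deficient and PXR-deficient livers and above 0 in CAR/PXR-deficient livers, and none of these passed the test. On the CAR-deficient arrays the log2 ratio of ST_Mm_289 was -0.19, -0.35, 0.00, -0.55, -0.24 and -0.26 for replicates 1 to 6. On the PXR-deficient arrays it was -0.37, 0.65, -0.15, -0.63, -0.29 and -0.19. On the CAR/PXR-deficient arrays it was 0.53, 0.36, 0.21, 0.08, -0.07 and 0.21, and on the wild type arrays -0.78, -1.29, -0.60, -0.53, -0.49 and -0.39. Every wild type array lay below all CAR/PXR-deficient arrays. The wild type values were chosen for being low, and the share of all probes that separate in this way was not counted.

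The C4bp mean was -0.27 ± 0.18 in CAR-deficient livers (SD, n = 6; lower on 5 of 6 arrays; limma, adjusted p = 0.116) and -0.16 ± 0.43 in PXR-deficient livers (SD, n = 6; lower on 5 of 6 arrays; limma, adjusted p = 0.280). It was 0.22 ± 0.21 in CAR/PXR-deficient livers (SD, n = 6; higher on 5 of 6 arrays; limma, adjusted p = 0.175), against -0.68 ± 0.33 in wild type (SD, n = 6). Without PXR-deficient array 2, the C4bp mean in that genotype was -0.32 and passed (limma, adjusted p = 0.0157). Of 17 alternatives, 2 called C4bp in PXR-deficient livers, and its mean ran from -0.32 to -0.0245 (highest limma adjusted p = 0.993).

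Differences between receptor-deficient genotypes were tested directly. For Ppargc1a by ST_Mm_320 the mean ratio was -0.67 in CAR-deficient livers and -0.25 in PXR-deficient livers, a difference of -0.43 (95% interval -0.76 to -0.10; limma, adjusted p = 0.0437), in a comparison that called 32.6% of probes. ST_Mm_131 differed by -0.32 (95% interval -0.56 to -0.08; limma, adjusted p = 0.0388), a call that was lost with median centring (limma, adjusted p = 0.0823), control centring (limma, adjusted p = 0.0812) and array weights (-0.18; limma, adjusted p = 0.142). Neither call held without PXR-deficient array 2, where ST_Mm_320 gave -0.30 (limma, adjusted p = 0.146) and ST_Mm_131 -0.22 (limma, adjusted p = 0.127). Leaving out 1 array at a time ended the call at 7 of 12 arrays for each probe. CAR-deficient minus CAR/PXR-deficient was -0.29 by ST_Mm_320 (95% interval -0.62 to 0.04; limma, adjusted p = 0.220) and -0.24 by ST_Mm_131 (95% interval -0.49 to -0.00324; limma, adjusted p = 0.145). PXR-deficient minus CAR/PXR-deficient was 0.13 by ST_Mm_320 (95% interval -0.20 to 0.46; limma, adjusted p = 0.526).

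For C4bp the mean ratio was -0.27 in CAR-deficient livers and 0.22 in CAR/PXR-deficient livers, a difference of -0.48 (95% interval -0.82 to -0.15; limma, adjusted p = 0.0335), in a comparison that called 22.5% of probes. The call ended at 7 of 12 arrays left out in turn, with adjusted p between 0.0235 and 0.0853. PXR-deficient minus CAR/PXR-deficient was -0.38 (95% interval -0.72 to -0.04; limma, adjusted p = 0.0644), in a comparison that called 41.5% of probes, and -0.54 without PXR-deficient array 2 (limma, adjusted p = 0.00283). CAR-deficient minus PXR-deficient was -0.10 (95% interval -0.44 to 0.23; limma, adjusted p = 0.635), and 0.06 without that array.

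Against wild type the differences are descriptive, since the wild type side was chosen for being low. CAR-deficient minus wild type was 0.04 for Ppargc1a by ST_Mm_320 (95% interval -0.29 to 0.37) and 0.04 by ST_Mm_131 (-0.20 to 0.28). PXR-deficient minus wild type was 0.47 by ST_Mm_320 (0.14 to 0.80) and CAR/PXR-deficient minus wild type 0.33 (0.00392 to 0.66). For C4bp the difference from wild type was 0.41 in CAR-deficient (0.08 to 0.75), 0.52 in PXR-deficient (0.18 to 0.85) and 0.90 in CAR/PXR-deficient livers (0.56 to 1.23). Ppargc1a thus stood near its wild type ratio in CAR-deficient livers, and C4bp stood above its wild type ratio in each receptor-deficient genotype.

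**Figure D2:**
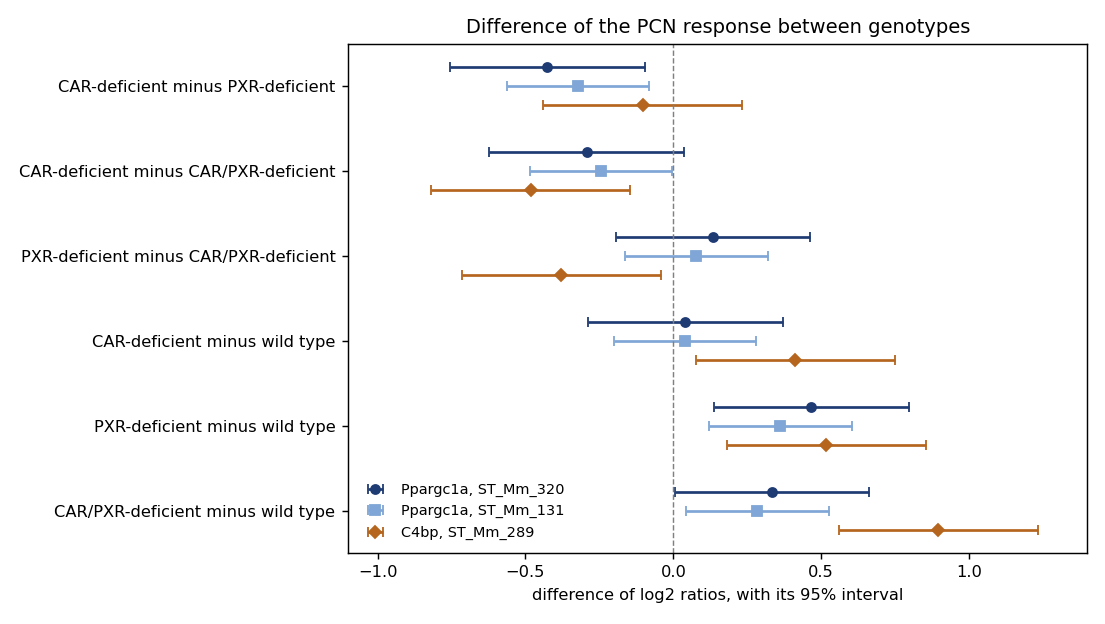
Difference of the log2 ratio between genotypes (horizontal axis, first named minus second named) with its 95% interval from the limma model, for Ppargc1a by ST_Mm_320 and ST_Mm_131 and C4bp by ST_Mm_289. C4bp in CAR/PXR-deficient minus wild type livers lies at 0.90 with the dyes as labelled, and the 3 comparisons with wild type carry no test.

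The channel levels, as log2 intensity after loess and Aquantile normalization, are the 2 sides of each ratio. By ST_Mm_320, Cy5 (PCN) and Cy3 (vehicle pool) levels of Ppargc1a averaged 10.22 and 10.89 in CAR-deficient livers, 10.30 and 10.55 in PXR-deficient livers, 10.90 and 11.28 in CAR/PXR-deficient livers, and 10.24 and 10.95 in wild type livers. The order of the Cy5 level was CAR/PXR-deficient, PXR-deficient, wild type and CAR-deficient, and the ranges of all neighbours overlapped. The PXR-deficient vehicle pool had the lowest Cy3 level and the CAR/PXR-deficient pool the highest. By ST_Mm_131 the Cy5 and Cy3 levels averaged 9.75 and 10.34 in CAR-deficient livers, 10.02 and 10.29 in PXR-deficient livers, 10.06 and 10.41 in CAR/PXR-deficient livers, and 9.77 and 10.40 in wild type livers, so the high CAR/PXR-deficient level of ST_Mm_320 was smaller by this probe.

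No difference of a member's Cy5 level among the receptor-deficient genotypes passed. CAR-deficient minus CAR/PXR-deficient was -0.68 by ST_Mm_320 (95% interval -1.16 to -0.20; limma, adjusted p = 0.0526; 13.6% of probes called), and -0.31 by ST_Mm_131 (95% interval -0.75 to 0.12; limma, adjusted p = 0.378). With the Cy5 level taken less the array median, ST_Mm_131 gave -0.74 and passed (limma, adjusted p = 0.0277), as did ST_Mm_320 (limma, adjusted p = 0.00882). CAR-deficient minus PXR-deficient was -0.09 for ST_Mm_320 (95% interval -0.57 to 0.39; limma, adjusted p = 0.949; 6.78% of probes called), and PXR-deficient minus CAR/PXR-deficient was -0.59 (95% interval -1.07 to -0.11; 4.66% of probes called; limma, adjusted p = 0.137). For C4bp, Cy5 and Cy3 levels averaged 8.69 and 8.96 in CAR-deficient livers, 8.86 and 9.02 in PXR-deficient livers, 8.88 and 8.67 in CAR/PXR-deficient livers, and 8.68 and 9.36 in wild type livers. The C4bp Cy5 means thus spanned less than the Cy3 means: CAR/PXR-deficient minus wild type was 0.20 in Cy5 (95% interval -0.24 to 0.65), while the vehicle pool of wild type was the brightest of the 4 pools and that of CAR/PXR-deficient livers the dimmest. Each pool is a single RNA mixture, so its level carries no test between genotypes.

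**Figure D3:**
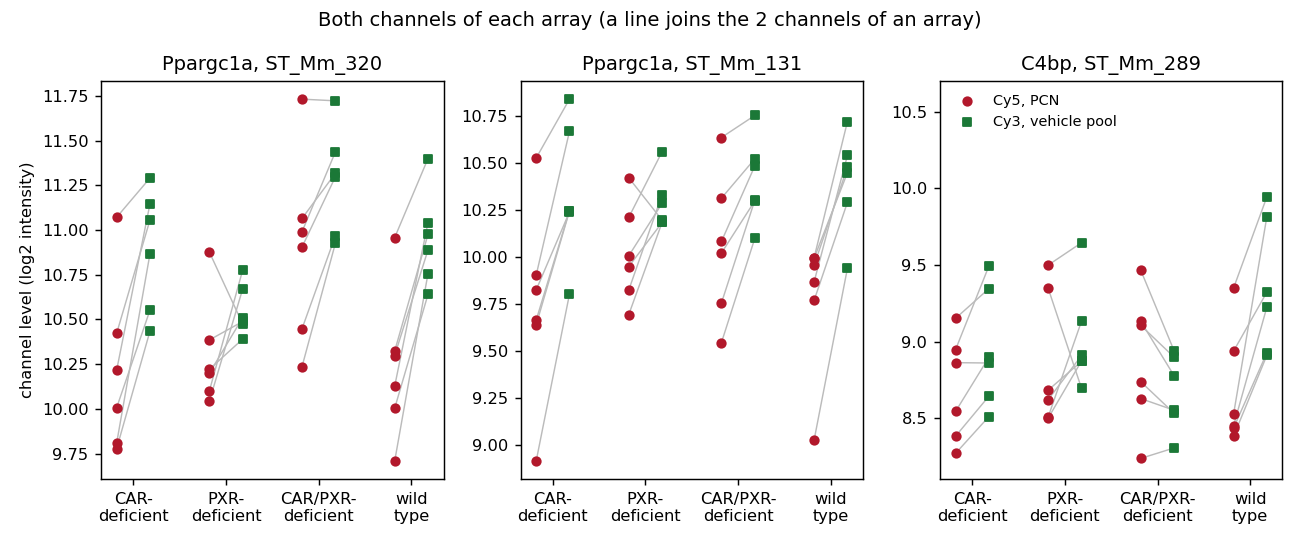
Channel level (vertical axis, log2 intensity, with a scale of its own in each panel) of Cy5 (PCN, circles) and Cy3 (vehicle pool, squares) by genotype for the 3 probes; a line joins both channels of an array. In C4bp the lines of 5 of 6 CAR/PXR-deficient arrays run down from Cy5 to Cy3, and those of all 6 wild type arrays run up.

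Before any normalization, the log2 ratio of foreground medians (F635 over F532) spread more widely. For ST_Mm_320 it averaged -0.67 ± 0.72 in CAR-deficient livers, -0.22 ± 0.50 in PXR-deficient livers, -0.23 ± 0.30 in CAR/PXR-deficient livers and -0.88 ± 0.72 in wild type livers (SD, n = 6 each). For ST_Mm_289 it averaged -0.41 ± 0.59, -0.26 ± 0.74 and 0.19 ± 0.43 in the same 3 receptor-deficient genotypes and -0.95 ± 0.60 in wild type (SD, n = 6 each). The foreground medians of ST_Mm_320 averaged 1330 in Cy5 and 1995 in Cy3 on CAR-deficient arrays, and 1526 in Cy5 and 2561 in Cy3 on wild type arrays. Those of ST_Mm_289 averaged 495.7 in Cy5 and 642.3 in Cy3 on CAR-deficient arrays, and 452.9 in Cy5 and 895.3 in Cy3 on wild type arrays. None of the 72 spots of either probe had saturated pixels, and 0 of ST_Mm_320 and 1 of ST_Mm_289 were flagged. C4bp was dim on some arrays. The lowest share of pixels above background in a spot was 25% in Cy5 and 55% in Cy3 for ST_Mm_289, against 62% and 60% for ST_Mm_320. The lowest array signal was 3.35 times background in Cy5 and 4.22 in Cy3 for ST_Mm_289, against 7.31 and 13.3 for ST_Mm_320.

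The 3 spots of a probe did not always agree within an array. The pooled SD between spots of an array was 0.24 for ST_Mm_320 and 0.20 for ST_Mm_289, against a pooled SD between arrays of 0.30 for each. On wild type array 2 the ST_Mm_320 spots read -2.05, -0.78 and -0.31 in print blocks 1, 3 and 5, and the ST_Mm_289 spots -1.91, -1.25 and -0.71. In CAR-deficient and wild type livers the spots in block 1 read lowest on average: -0.84 ± 0.37 in CAR-deficient livers and -0.89 ± 0.59 in wild type livers for ST_Mm_320, against -0.53 ± 0.32 and -0.60 ± 0.22 in block 5 (SD, n = 6 each). For C4bp the block 1 spots averaged -0.39 ± 0.24 in CAR-deficient livers and -0.89 ± 0.52 in wild type livers, against -0.20 ± 0.16 and -0.56 ± 0.21 in block 5 (SD, n = 6 each). With loess run within print blocks, the wild type means were -0.67 for ST_Mm_320 and -0.63 for ST_Mm_289, and ST_Mm_320 stayed at -0.67 in CAR-deficient livers (limma, adjusted p = 1.32e-04).

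The 2 Ppargc1a probes moved together across arrays of each receptor-deficient genotype. Other probes followed ST_Mm_131 nearly as closely. Over 24 arrays, as deviations from genotype means, ST_Mm_131 had r = 0.86 with ST_Mm_320. With probes that have no gene name it had r = 0.84 and 0.80. Pearson's r between ST_Mm_320 and ST_Mm_131 was 0.98 in CAR-deficient livers, 0.98 in PXR-deficient livers and 0.93 in CAR/PXR-deficient livers (exact permutation over 720 pairings, p = 0.00417, 0.00139 and 0.00417, each 0.00833 after Benjamini-Hochberg adjustment over 6 tests). Spearman's rho was 1, 1 and 0.94 in the same order (exact permutation, adjusted p = 0.00833, 0.00833 and 0.0333). Without the 2 arrays farthest from the median, r was 0.94, 0.998 and 0.93. In wild type r was 0.27 and rho -0.09 over 6 arrays, with a largest gap between the probes of 0.46 on array 5. Without the 2 farthest arrays, the wild type r was -0.65.

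Between Ppargc1a by ST_Mm_320 and C4bp, r was 0.47 in CAR-deficient livers, 0.69 in PXR-deficient livers and 0.92 in CAR/PXR-deficient livers (exact permutation, adjusted p = 0.329, 0.168 and 0.0208), with rho of 0.31, 0.37 and 0.77 (exact permutation, adjusted p = 0.564, 0.564 and 0.154). Without the 2 farthest arrays r was -0.40, -0.18 and 0.54. Under median centring r was 0.66, 0.51 and 0.88 in the same order, and -0.79, 0.22 and 0.96 without the 2 farthest arrays. In CAR-deficient livers the sign of r thus turned without those arrays under both scalings, whereas in CAR/PXR-deficient livers r stayed above 0 under both. In wild type r was 0.72 and rho 0.60, and without the 2 farthest arrays r was 0.82 after loess but -0.38 under median centring. Both ratios share the array, its normalization and its vehicle pool. All 3 spots of each probe also lie in the same print blocks.

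**Figure D4:**
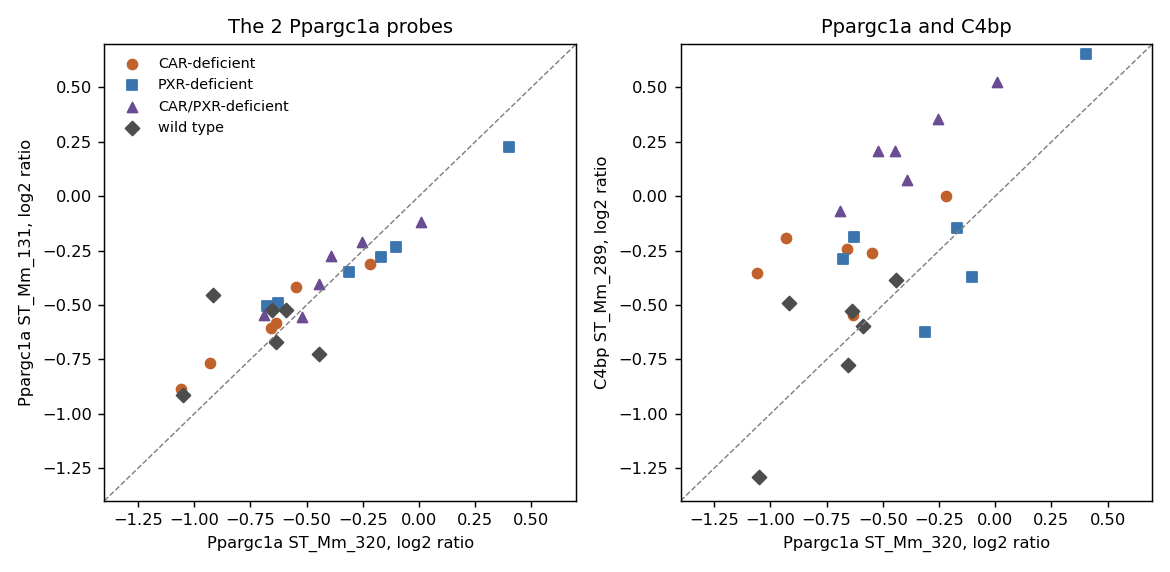
Log2 ratios of ST_Mm_131 (left) and C4bp (right), vertical axes, against ST_Mm_320, horizontal axes; each point is an array and the dashed line marks equal ratios. The Ppargc1a probes follow the line in the 3 receptor-deficient genotypes, and all 6 CAR/PXR-deficient points of C4bp lie above it.

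Over all 24 arrays the tested probes most like ST_Mm_320 were ST_Mm_131 (r = 0.91), Pon2 (r = 0.79), a lactonase of the paraoxonase family, and a probe with no gene name (r = 0.77). Pon2 averaged -0.20 in CAR-deficient livers, 0.08 in PXR-deficient livers, -0.07 in CAR/PXR-deficient livers and -0.33 in wild type livers. The probes most like C4bp were 2 without gene names (r = 0.86 and 0.80) and Crebbp (r = 0.80), the acetyltransferase CBP, which averaged -0.14 in CAR-deficient livers, -0.07 in PXR-deficient livers, -0.13 in CAR/PXR-deficient livers and -0.53 in wild type livers. These correlations describe 24 arrays that share pools, and include the differences between genotype means. As deviations from genotype means, r with ST_Mm_320 was 0.86 for ST_Mm_131, 0.71 for Pon2 and 0.65 for the unnamed probe. With C4bp it was 0.65 and 0.57 for the unnamed probes and 0.77 for Crebbp, then the highest of these 3.

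In wild type, where the selection was made, ST_Mm_320 ranked 1 and ST_Mm_289 ranked 3 from the lowest of 236. An unnamed probe between them read -0.71 ± 0.51 (SD, n = 6) and did not pass the test. Just outside stood Fgb, the fibrinogen β chain, at -0.64 ± 0.13, and ST_Mm_131 at -0.63 ± 0.17 (SD, n = 6 each). Fgb and Crp, the C-reactive protein, are plasma proteins of the liver's acute phase and were compared with C4bp after their values were known. Fgb fell by 0.45 ± 0.42 in CAR-deficient livers (SD, n = 6; limma, adjusted p = 0.0159) and by 0.87 ± 0.50 in PXR-deficient livers (SD, n = 6; limma, adjusted p = 1.71e-05). It rose by 1.64 ± 0.19 in CAR/PXR-deficient livers (SD, n = 6; limma, adjusted p = 1.38e-10), a 3.11-fold higher ratio. The CAR-deficient call was lost without array 2 of that genotype (-0.28; limma, adjusted p = 0.119), and with median centring it also missed the threshold (limma, adjusted p = 0.257). With control centring both falls missed it (limma, adjusted p = 0.208 in CAR-deficient livers and 0.184 in PXR-deficient livers). Crp averaged -0.09 ± 0.24 in CAR-deficient livers (SD, n = 6; lower on 3 of 6 arrays; limma, adjusted p = 0.514). In PXR-deficient livers it averaged -0.14 ± 0.35 (SD, n = 6; lower on 4 of 6 arrays; limma, adjusted p = 0.203). Crp rose by 0.52 ± 0.08 in CAR/PXR-deficient livers (SD, n = 6; limma, adjusted p = 5.88e-05), against -0.46 ± 0.16 in wild type (SD, n = 6). C4bp, Fgb and Crp thus each had a mean below 0 in CAR-deficient, PXR-deficient and wild type livers and above 0 in CAR/PXR-deficient livers, where Fgb and Crp passed the test and C4bp did not. The CAR/PXR-deficient side of that statement holds for the dye direction as labelled. The share of all tested probes with these signs was not counted. Over all tested probes, CAR/PXR-deficient arrays had a median r below 0 with the arrays of each other genotype.

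Of 14 genes on the array that encode partners, relatives or targets of PGC-1α, a list drawn up after the gene names were known, 1 rose and 0 fell in CAR-deficient livers, 2 rose and 1 fell in PXR-deficient livers, and 3 rose and 0 fell in CAR/PXR-deficient livers, against 3 higher and 1 lower in wild type. Over all 236 probes 6.78% were called higher and 10.2% lower in CAR-deficient livers, 19.5% each way in PXR-deficient livers, 10.6% higher and 11.9% lower in CAR/PXR-deficient livers, and 21.2% higher and 16.5% lower in wild type. The list's median ratio was 0.00, -0.04 and 0.01 in the 3 receptor-deficient genotypes and 0.07 in wild type, against -0.01, -0.03, 0.04 and -0.0021 over all 236 probes in that order. Alas1, the first enzyme of haem synthesis, rose by 0.42 ± 0.10 in CAR-deficient livers (SD, n = 6; limma, adjusted p = 9.18e-04). Its mean was 0.11 ± 0.12 in PXR-deficient livers, -0.16 ± 0.30 in CAR/PXR-deficient livers and 0.36 ± 0.28 in wild type (SD, n = 6 each). Alas1 is also counted in the list of PXR and CAR target genes below. G6pc, the glucose-6-phosphatase of gluconeogenesis, rose by 0.65 ± 0.16 in PXR-deficient livers (SD, n = 6; limma, adjusted p = 0.00140). It averaged 0.12 ± 0.49 in CAR-deficient livers, -0.17 ± 0.24 in CAR/PXR-deficient livers and -0.22 ± 0.54 in wild type livers (SD, n = 6 each).

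Ppara, the receptor of fatty acid oxidation genes, rose by 0.17 ± 0.11 in PXR-deficient livers (SD, n = 6; limma, adjusted p = 0.00452) and by 0.21 ± 0.09 in CAR/PXR-deficient livers (SD, n = 6; limma, adjusted p = 0.00101). Nr1h4, the bile acid receptor FXR, rose by 0.22 ± 0.10 (SD, n = 6; limma, adjusted p = 0.00489) in CAR/PXR-deficient livers. Foxo1, a factor of the fasting response, rose there by 0.21 ± 0.15 (SD, n = 6; limma, adjusted p = 0.00488), but read 0.02 with median centring (limma, adjusted p = 0.854) and -0.05 with control centring, and the call was also lost in the authors' value table (limma, adjusted p = 0.348) and without arrays 5 and 6 (limma, adjusted p = 0.106). Cyp7a1, the rate-limiting enzyme of bile acid synthesis, fell by 0.20 ± 0.19 in PXR-deficient livers (SD, n = 6; limma, adjusted p = 0.0163), and not without array 2 of that genotype (-0.13; limma, adjusted p = 0.127). Hnf4a and Esrra, receptors that PGC-1α coactivates, and Ppargc1b, its closest relative, did not pass in any receptor-deficient genotype, with means between -0.19 and 0.10. With centring on control spots the calls of Alas1 (limma, adjusted p = 0.0989), of Ppara (limma, adjusted p = 0.104 in PXR-deficient livers and 0.297 in CAR/PXR-deficient livers) and of Cyp7a1 (limma, adjusted p = 0.558) ended, and without CAR/PXR-deficient arrays 5 and 6 that of Nr1h4 (limma, adjusted p = 0.125). The value table did not call Nr1h4 (limma, adjusted p = 0.220), Cyp7a1 (limma, adjusted p = 0.184) or Ppara in PXR-deficient livers (limma, adjusted p = 0.152), and median centring did not call the last (limma, adjusted p = 0.212).

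**Figure D5:**
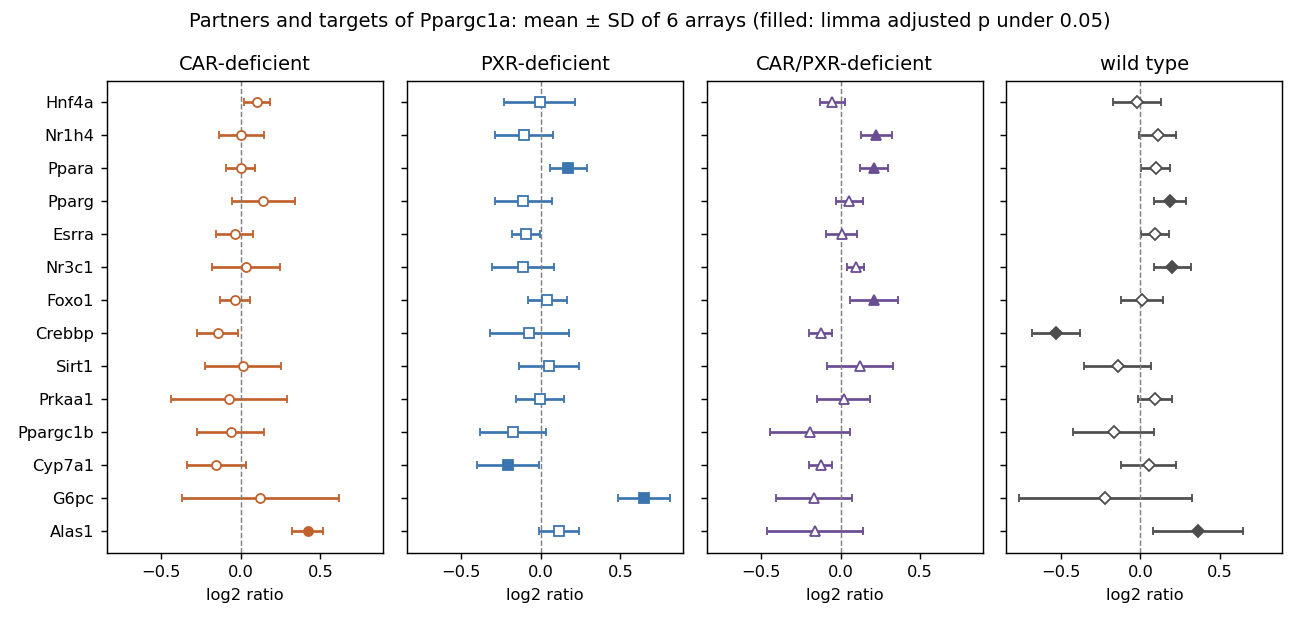
Log2 ratio of PCN over the vehicle pool (horizontal axis) for 14 partners and targets of PGC-1α, 1 panel per genotype; points are means and bars the SD of 6 arrays, filled where the limma adjusted p is under 0.05. G6pc in PXR-deficient livers, at 0.65, is the highest and Crebbp in wild type, at -0.53, the lowest.

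Of 17 listed PXR and CAR target genes 8 were on the array, and 4 rose and 1 fell in CAR-deficient livers, 1 rose and 1 fell in PXR-deficient livers, and 1 rose and 2 fell in CAR/PXR-deficient livers, against 5 higher and 0 lower in wild type. Over all tested probes 16.9% were called in CAR-deficient livers, 39% in PXR-deficient livers, 22.5% in CAR/PXR-deficient livers and 37.7% in wild type, which the counts of this list and of the next 3 lists stand against. Cyp3a13 rose by 0.79 ± 0.32 in CAR-deficient livers (SD, n = 6; limma, adjusted p = 9.40e-09) and by 0.25 ± 0.11 in CAR/PXR-deficient livers (SD, n = 6; limma, adjusted p = 0.0162), and averaged -0.01 ± 0.08 in PXR-deficient livers, against 1.23 ± 0.16 in wild type (SD, n = 6 each). The CAR/PXR-deficient call of Cyp3a13 ended with control centring (limma, adjusted p = 0.141) and in the authors' value table (limma, adjusted p = 0.346), and without array 2 (limma, adjusted p = 0.0513) or array 4 (limma, adjusted p = 0.0652) of that genotype. Among 4 tested clock genes, 0 were called in CAR-deficient, PXR-deficient and wild type livers and 1 rose in CAR/PXR-deficient livers. Of 5 bile acid genes, 2 fell and 0 rose in CAR-deficient livers, 2 rose and 2 fell in PXR-deficient livers and 0 were called in CAR/PXR-deficient livers, against 1 higher and 1 lower in wild type. Of 6 cholesterol synthesis genes, 1 fell and 0 rose in CAR-deficient livers, 2 rose and 1 fell in PXR-deficient livers and 1 rose and 0 fell in CAR/PXR-deficient livers, against 2 higher and 0 lower in wild type.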

How the data were processed

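Each of the 24 deposited scanner tables holds, per the file headers, foreground and background intensity medians for Cy5 and Cy3 per spot, with no normalization recorded, and the percent of pixels above background and of saturated pixels. The authors also deposited a table of log2 values whose normalization is not given in the sources used here. Its column medians run from -0.37 to 0.17, and its columns correlate with the scanner ratios at r = 0.77 to 0.996 with slopes of 0.76 to 1.09. It served as an alternative, and its centring stays unknown. Samples were grouped by title.

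Tools were R 4.3.3 and its package limma 3.58.1. Normexp with an offset of 50 corrected the foreground medians; 1 of 48 channels needed its maximum likelihood form. Ratios were normalized by global loess (span 0.3, 4 iterations), weighting only unflagged mouse spots, followed by the mean over each probe's spots. Channel levels add Aquantile scaling over mouse spots. Spots counted as seen when Cy5 or Cy3 exceeded background plus 2 SD in more than 50% of pixels. Probes seen in 50% or more of spots, on 50% or more of the arrays of some genotype, were tested: 236, leaving 48 out. One limma model had a coefficient per genotype over all 24 arrays, with Benjamini-Hochberg adjustment over 236 probes, a threshold of 0.05 and 95% intervals. The model was tested on simulated data. The number of arrays limits the precision.

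GEO's platform annotation gave 147 mouse probes 1 gene symbol, 0 several and 137 none, and all 147 symbols matched the RefSeq gene table. For each member, the 3 tested probes with the highest r over 24 arrays were described, by name where annotated. Members and lists were chosen with earlier results of these data known. The 2 lists of PGC-1α partners and of acute phase proteins were added after probes had been named. No 2 arrays held identical values. Replicate numbers did not pair arrays: 36 same-number pairs had correlations of deviations between -0.52 and 0.29 (median -0.01).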

Additional observations from a re-analysis of the deposited data

Results flagged for a closer look

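The response of Ppargc1a differed between CAR-deficient and PXR-deficient livers by -0.43 through ST_Mm_320 and by -0.32 through ST_Mm_131, and that of C4bp between CAR-deficient and CAR/PXR-deficient livers by -0.48, each past the threshold for the difference itself. The first pair of calls is lost without PXR-deficient array 2.

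Of 84 sets of 6 arrays examined, 9 held an array whose gap to its nearest neighbour exceeded 0.625 of the range, which chance gives in about 1 of 20 sets. PXR-deficient array 2 accounts for 5 of them: C4bp at 0.65 (others -0.63 to -0.15), Ppargc1a by ST_Mm_131 at 0.23 (others -0.51 to -0.23), Crebbp at 0.40 (others -0.30 to -0.05), Nr1h4 at -0.46 (others -0.08 to 0.05) and Cyp7a1 at -0.59 (others -0.17 to -0.06). CAR-deficient array 2 was far from the rest for Fgb at -1.27 (others -0.48 to -0.13) and Crp at -0.58 (others -0.11 to 0.05). CAR/PXR-deficient array 1 was lowest for Cyp3a11 at -0.99 (others -0.38 to -0.08). Wild type array 2 was lowest for the Cy5 level of Ppargc1a by ST_Mm_131, at 9.03 (others 9.77 to 10.00 on the log2 intensity scale).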

How the results depend on the processing

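The fall of Ppargc1a in CAR-deficient livers passed under each of 15 alternatives by ST_Mm_320 (-0.77 to -0.58) and by ST_Mm_131 (-0.70 to -0.51). The causes of the changes below were not tested. Slide and scan date were not run as blocks, since the tables used here give none. Replicate numbers do not pair the arrays (2 of 24 arrays correlated best with their own number). With the replicate block the Ppargc1a difference between CAR-deficient and PXR-deficient livers was -0.43 (adjusted p = 0.0538), the C4bp difference between CAR-deficient and CAR/PXR-deficient livers -0.48 (0.0546), the ST_Mm_131 difference between CAR-deficient and PXR-deficient livers -0.32 (0.0569), and the Cy5 difference of ST_Mm_320 between CAR-deficient and CAR/PXR-deficient livers -0.68 (0.0484).

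For ST_Mm_320, array weights gave -0.38 in PXR-deficient livers (adjusted p = 7.86e-04). In CAR/PXR-deficient livers median centring gave -0.29 (0.0768), control centring -0.36 (0.212) and leaving out arrays 5 and 6 -0.27 (0.233). For CAR-deficient minus PXR-deficient, median centring gave -0.40 (0.123), control centring -0.66 (0.107), no filter -0.43 (0.0535) and array weights -0.24 (0.162). Without PXR-deficient array 2, chosen after seeing the data, it was -0.37 (0.309) with control and -0.32 (0.273) with median centring. Taking the Cy5 level less the array median gave -1.0985 for CAR-deficient minus CAR/PXR-deficient (0.00882).

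For C4bp, array weights gave -0.31 in CAR-deficient livers (0.0130), -0.31 in PXR-deficient livers (0.00204) and 0.19 in CAR/PXR-deficient livers (0.0399), and the authors' value table -0.33 in CAR-deficient (0.0341) and 0.36 in CAR/PXR-deficient livers (0.0133). CAR-deficient minus CAR/PXR-deficient was -0.56 with control centring (0.246). PXR-deficient minus CAR/PXR-deficient passed with no background correction (-0.43), median centring (-0.40), loess within print blocks (-0.41), array weights (-0.51) and the value table (-0.51), and without PXR-deficient array 2 under control (-0.51) and median centring (-0.49). CAR-deficient minus PXR-deficient turned to 0.0072 with array weights and 0.0015 with median centring without that array. For ST_Mm_131, PXR-deficient minus CAR/PXR-deficient turned to -0.0297 with array weights, -0.0214 without CAR/PXR-deficient arrays 5 and 6 and -0.0051 with control centring without PXR-deficient array 2. Foxo1 turned to -0.046 in CAR/PXR-deficient livers with control centring.

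Leaving out 1 array at a time, ST_Mm_320 ran from -0.38 to -0.16 in PXR-deficient and from -0.46 to -0.32 in CAR/PXR-deficient livers, and CAR-deficient minus PXR-deficient from -0.52 to -0.30. C4bp ran from -0.32 to -0.0685 in PXR-deficient livers. Its CAR-deficient minus PXR-deficient difference ran from -0.20 to 0.0585, CAR-deficient minus CAR/PXR-deficient from -0.54 to -0.42 and PXR-deficient minus CAR/PXR-deficient from -0.54 to -0.29. ST_Mm_131 ran from -0.0214 to 0.12 for PXR-deficient minus CAR/PXR-deficient. Cy5 differences of ST_Mm_320 ran from -0.26 to 0.0277 for CAR-deficient minus PXR-deficient and from -0.85 to -0.51 for CAR-deficient minus CAR/PXR-deficient. For PXR-deficient minus CAR/PXR-deficient they ran from -0.15 to 0.089 for C4bp and from -0.14 to 0.0746 for ST_Mm_131.

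The count of changed probes was 40 in CAR-deficient livers (16 higher, 24 lower), against 18 with control centring (5 and 13). It was 92 in PXR-deficient livers (46 and 46), against 56 with median centring (37 and 19), 42 with control centring (38 and 4) and 60 in the value table (39 and 21). Without PXR-deficient array 2 it was 36 with control centring (18 and 18) and 51 with median centring (36 and 15). It was 53 in CAR/PXR-deficient livers (25 and 28), against 32 with control centring (20 and 12), 88 with array weights (45 and 43) and 34 without arrays 5 and 6 (17 and 17). It was 89 in wild type (50 and 39), against 42 with median centring (21 and 21), 29 with control centring (9 and 20) and 38 in the value table (16 and 22). Leaving out 1 array at a time gave 33 to 52, 65 to 93, 43 to 58 and 46 to 85 in CAR-deficient, PXR-deficient, CAR/PXR-deficient and wild type livers, the lowest without wild type array 1. Control centring moved the median of all tested probes to -0.15 in CAR-deficient livers, 0.07 in PXR-deficient livers (-0.10 without array 2), -0.11 in CAR/PXR-deficient and -0.20 in wild type livers.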
